A study of Homo sapiens with 6 samples.

Results

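The ADAM, ADAMTS, MMP and TIMP genes were taken from the count table by name. Protein-coding rows were kept whose symbol begins with ADAM, or with MMP or TIMP followed by a digit. This gave 52 of the 24526 genes in the table, which holds 15310 protein-coding genes, and no expression value was used to choose them. They comprise 17 MMP genes, 13 ADAM genes, 17 ADAMTS and ADAMTSL genes, 4 TIMP genes and MMP24OS, a gene on the strand opposite to MMP24 that meets the name rule and belongs to no protease family. RNA came from WM266.4 cells, 1 human melanoma cell line, 48 h after transfection with siRNA. In 3 cultures the siRNA was the commercial Silencer Select Negative Control No. 2 (neg.si) and in the other 3 it was a Silencer Select siRNA against the kinase RIPK4 (RIPK4.si), so that the controls had been transfected as well. A single siRNA per group in a single line means that an effect of the RIPK4 siRNA on other transcripts cannot be told apart from an effect of losing RIPK4. The comparison asks how the transcripts of melanoma cells differ when RIPK4 is silenced.

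Metzincins are zinc-dependent proteases whose zymogens are held inactive by a prodomain until it is removed. Matrix metalloproteinases (MMPs) cut collagens, gelatins, proteoglycans and many other extracellular proteins, and the membrane-type members work at the cell surface, where they also activate other MMPs. ADAMs are membrane proteins that shed the extracellular parts of cytokines, growth factors, receptors and adhesion molecules. ADAMTS proteins are secreted enzymes that trim procollagens, cut proteoglycans or process clotting and matrix proteins, while the related ADAMTSL proteins lack the protease domain. TIMPs are small secreted inhibitors that block the active site, and TIMP3 stands out among them by binding to the matrix and by inhibiting several ADAMs and ADAMTSs. In melanoma these families are studied for invasion and for the release of cell-surface ligands.

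RIPK4 was measured at 85.8, 76.5 and 54.7 CPM (counts scaled to the same library size) in neg.si and at 19.9, 16.7 and 21.5 CPM in RIPK4.si. It fell from 72.3 ± 15.9 to 19.4 ± 2.47 CPM (SD, n = 3), which is -1.90 ± 0.203 (standard error) as a log2 fold change. The quasi-likelihood test of edgeR, with p-values adjusted by the Benjamini-Hochberg method across every gene tested, gave an adjusted p = 0.0102. That p rose to between 0.0622 and 0.106 in 4 of the 6 fits that left out 1 library (neg.si replicate 2 or any RIPK4.si replicate), while the log2 fold change stayed between -2.06 and -1.74 in all 6. The libraries held 28464057 to 31688095 counts, of which 9.61% to 13.37% lay on mitochondrial genes. All 10 listed melanocyte lineage markers were detected, with summed levels of 5085.4 to 5721.6 CPM in neg.si and 4067.6 to 4684.0 CPM in RIPK4.si. These sums did not overlap, while 5 of the 10 markers had a log2 fold change below 0, with a median of -0.05. TYRP1 (0.36), MCAM (0.07), MLANA (0.06), S100A1 (0.06) and MITF (0.04) were above 0. PMEL, a melanosome protein gene, was the 1 called with edgeR, beside 0.767% of all genes. DESeq2, which called 2.91% of all genes, also called the pigment enzyme genes DCT (adjusted p = 0.00352) and TYR (adjusted p = 0.0407). The part of these differences in those of the members was not tested. Endothelial and leucocyte markers summed to at most 1.56 CPM in any library. Keratinocyte markers summed to 10.2 to 11.6 CPM in neg.si and 11.8 to 16.1 CPM in RIPK4.si without overlap, nearly all of it KRT10, which was not called (log2 fold change 0.41), and the part of this in the members' differences was not tested. The 6 fibroblast markers summed to 634.2 to 817.8 CPM in neg.si and 512.7 to 1041.9 CPM in RIPK4.si, with overlap. COL1A2 made up nearly all of this (695.5 CPM in neg.si), and the other fibroblast markers, COL1A1 among them, had neg.si means under 1 CPM. The control libraries differed with the GC content of genes. The rank correlation of GC content with a gene's deviation in a library was 0.562 in neg.si replicate 1, 0.08 in replicate 2 and -0.554 in replicate 3, against -0.083 to 0.173 in RIPK4.si.

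The members ranged from a few counts to very abundant. In neg.si, 15 of the 52 had a mean of at least 100 CPM, 6 lay between 10 and 100 CPM, 16 between 1 and 10 CPM, and 15 under 1 CPM. Summed over all members, the level was 6860.2 to 7831.8 CPM in neg.si and 7473.6 to 7854.2 CPM in RIPK4.si, and the groups overlapped. The 5 most abundant members made up 66.4% to 78.4% of that sum.

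**Figure D1:**
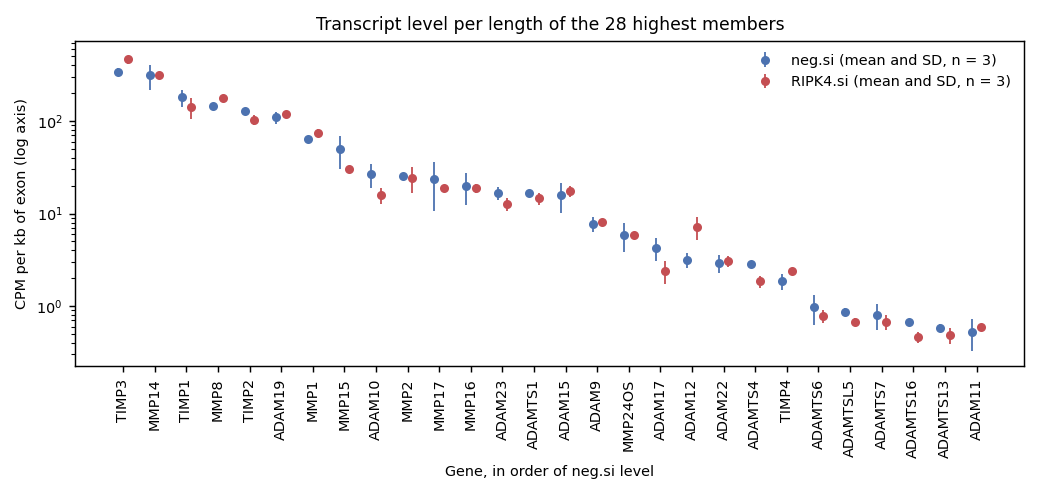
Level of the 28 highest members in CPM per kb of exon (log axis), as mean and SD of 3 neg.si and 3 RIPK4.si libraries, ordered by the neg.si mean. TIMP3 and MMP14 head the order at 343 and 313 CPM per kb in neg.si, and neg.si bars are wide for MMP15 and MMP17.

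The order of the members by level was taken after division by exon length. TIMP3 (343 ± 31.4 CPM per kb, SD, n = 3) and MMP14 (313 ± 93.4 CPM per kb) were the highest in neg.si, and their mean ± SD ranges overlapped. MMP14 encodes the membrane protease MT1-MMP. TIMP1, an inhibitor of most secreted MMPs, followed at 181 ± 37.5 CPM per kb, below the MMP14 range. MMP8, known as neutrophil collagenase, had 144 ± 4.03 CPM per kb, within the TIMP1 range. TIMP2, which blocks MMP2 and also takes part in its activation on MMP14, had 130 ± 8.87 CPM per kb, below MMP8. The ADAM highest per length was ADAM19, known for shedding neuregulins, at 110 ± 16.2 CPM per kb, and its range overlapped that of TIMP2. MMP1, the interstitial collagenase, stood at 64.6 ± 2.44 CPM per kb, below ADAM19. MMP15, another membrane-type MMP, had 49.5 ± 19.3 CPM per kb, which overlapped the MMP1 range. ADAM10, the main sheddase of Notch receptors and cadherins, had 26.8 ± 7.75 CPM per kb and MMP2, gelatinase A, 25.6 ± 2.12 CPM per kb, which did not separate. ADAM17, the TNF-converting enzyme, had 4.26 ± 1.17 CPM per kb. With the longest annotated transcript as the length, MMP14 ranked above TIMP3, TIMP2 above MMP8, and MMP17 above ADAM10 and MMP2.

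The 2 detected collagenase genes are neighbours of genes that were close to undetected. On chromosome 11 (GRCh38, all on the minus strand) the order is MMP7 (102520508 to 102530750), MMP20 (102576832 to 102625332), MMP8 (102711796 to 102727050), MMP10 (102770502 to 102780628), MMP1 (102789919 to 102798160) and MMP3 (102835801 to 102843609). MMP10, which encodes stromelysin-2 and lies between the collagenase genes, had 2, 4 and 0 counts in neg.si and 9, 2 and 0 in RIPK4.si. MMP3, stromelysin-1, had 7, 2 and 2 counts in neg.si and 12, 8 and 5 in RIPK4.si. MMP7, matrilysin, had 18 counts in all in neg.si and 12 in RIPK4.si, and MMP20, enamelysin, had 1 and 7. Per length, the neg.si means of these 4 genes were 0.00421 to 0.0843 CPM per kb, beside 144 CPM per kb for MMP8 and 64.6 CPM per kb for MMP1, with the nearly undetected MMP10 between the 2 abundant genes. MMP1 shares 8.14% of its exon bases with WTAPP1, and since read pairs were counted without regard to strand, reads of overlapping genes on opposite strands cannot be told apart.

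Promoters of MMP genes in this cluster are known for binding AP-1, the JUN and FOS dimer. RefSeq promoters (GRCh38.p14, 250 bases before to 50 after the start) matched 33 of the 52 members. The AP-1 motif TGANTCA, whose reverse complement has the same form so that 1 search covers both strands, was found in 3 of these 33 promoters (9.09%), taken as 1 per gene, and in 7.71% of all 35116 promoter entries, where a gene can have several. The 3 were MMP7, MMP10 and MMP20. MMP1 and MMP3 had no entry. A stretch of 180 bases of each of these windows, running from before the start to shortly after it, is shown with that of MMP8, the abundant gene of the cluster among those with an entry. Capitals mark TGANTCA, which begins 67 bases before the start in MMP7 and MMP10 and 112 before it in MMP20.
MMP8, chromosome 11, 102724925 to 102725104, minus strand: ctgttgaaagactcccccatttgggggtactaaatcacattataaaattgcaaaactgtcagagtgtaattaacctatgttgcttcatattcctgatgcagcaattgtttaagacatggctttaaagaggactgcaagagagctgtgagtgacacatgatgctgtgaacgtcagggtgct
MMP10, chromosome 11, 102780599 to 102780778, minus strand: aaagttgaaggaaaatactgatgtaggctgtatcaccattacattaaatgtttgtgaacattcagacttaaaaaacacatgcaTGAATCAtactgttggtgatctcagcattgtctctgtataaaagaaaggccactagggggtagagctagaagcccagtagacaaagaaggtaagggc
MMP7, chromosome 11, 102530718 to 102530897, minus strand: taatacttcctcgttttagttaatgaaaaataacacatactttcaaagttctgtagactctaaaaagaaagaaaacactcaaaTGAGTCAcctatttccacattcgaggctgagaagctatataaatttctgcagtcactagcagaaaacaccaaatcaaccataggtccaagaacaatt
MMP20, chromosome 11, 102625303 to 102625482, minus strand: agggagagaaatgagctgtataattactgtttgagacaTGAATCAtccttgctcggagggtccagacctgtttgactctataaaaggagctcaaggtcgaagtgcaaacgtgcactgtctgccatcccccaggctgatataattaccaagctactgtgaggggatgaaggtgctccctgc
The MMP8 window belongs to a start inside the gene, whose 5′ end on the minus strand lies at 102727050. The windows of MMP7, MMP10 and MMP20 span the 5′ ends of their genes. The MMP8 window holds no TGANTCA, which says only that these letters are not in it. The sequence before the 5′ end of MMP8 was not searched.

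For the comparison of RIPK4.si with neg.si, 43 of the 52 members had enough counts to be tested. With edgeR, 0 of these 43 reached an adjusted p under 0.05, beside 0.767% of the 16297 genes tested. An unadjusted p under 0.05 was found for 9 of the 43, against 10.8% of all genes. Of these, 7 were lower in RIPK4.si (ADAM10, ADAM17, ADAMTS2, ADAMTS4, ADAMTS16, MMP11 and MMP15), against 6.0% of all genes, and 2 were higher (ADAM12 and TIMP3), against 4.85%. DESeq2 called ADAM12 alone of the 40 members to which it gave an adjusted p, while calling 2.91% of all genes. With each library's GC trend removed, edgeR called ADAM12, ADAM10, ADAMTS4 and MMP15, which is 4 of 43 beside 3.28% of all genes. The 3 libraries of one group all lay above or all below those of the other in 13 of the 43 (30.2%), beside 17.6% of all genes. Of these 13, 8 were lower in RIPK4.si, beside 9.40% of all genes. With 3 libraries against 3, an exact two-sided permutation test of a single gene cannot give a p below 0.1. The replicates were described as biological, and p-values refer to the spread between them.

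**Figure D2:**
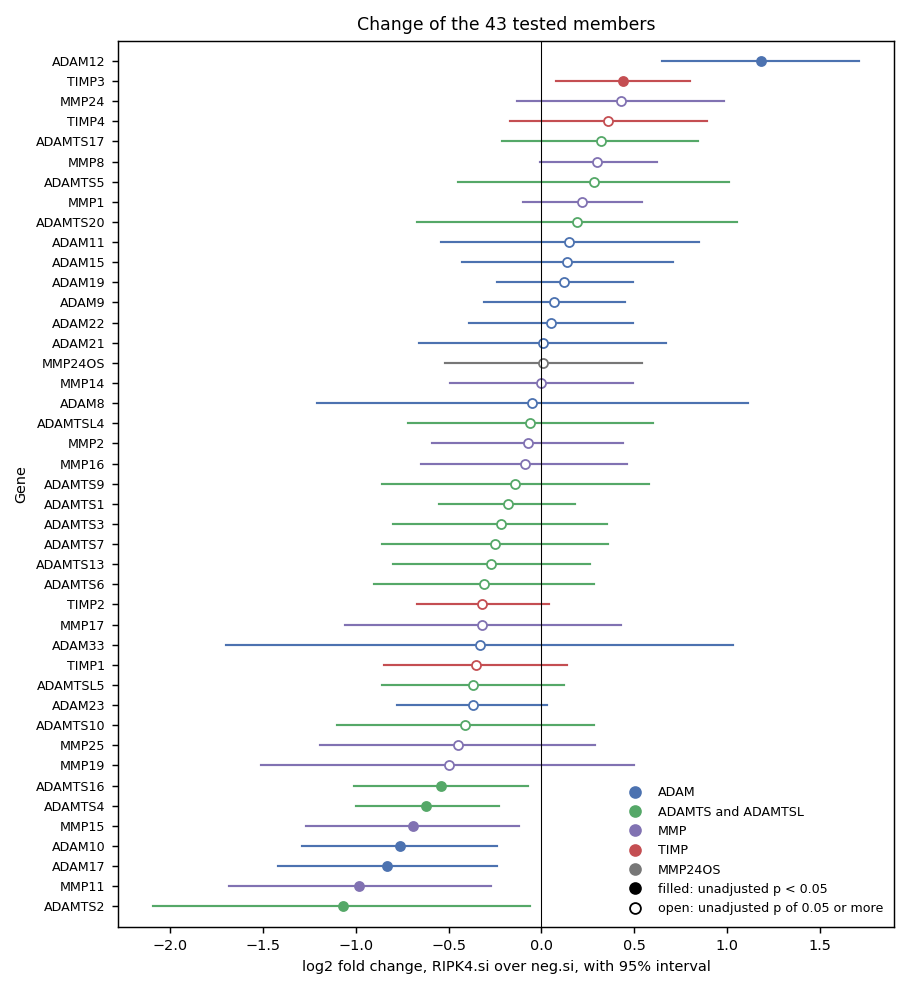
Log2 fold change of RIPK4.si over neg.si for the 43 members tested with edgeR, with 95% confidence intervals, coloured by family. Points run from -1.07 for ADAMTS2 to 1.18 for ADAM12, and filled points mark the 9 members with an unadjusted p under 0.05.

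The median log2 fold change of the 43 was -0.14, beside -0.02 over all genes tested, and 27 of them (62.8%) were below 0, beside 53.4% of all genes. By family, 12 of 15 ADAMTS and ADAMTSL genes were below 0 with a median of -0.25, 8 of 11 MMPs with a median of -0.09, and 5 of 12 ADAMs with a median of 0.03. The TIMPs were split, with 2 above and 2 below 0. A change of at least 1.5-fold either way was fitted for 7 of the 43 (16.3%), beside 11.4% of all genes. In bulk RNA, fewer cells that express a gene and less of its RNA per cell cannot be told apart.

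ADAM12, a protease known for cutting insulin-like growth factor binding proteins and for shedding EGF receptor ligands, had the largest fitted difference in the upward direction among the 43 members tested. It was measured at 26.9, 29.5 and 37.6 CPM in neg.si and at 86.4, 48 and 78.5 CPM in RIPK4.si. All RIPK4.si libraries lay above all neg.si libraries, and RIPK4.si replicate 2 was the lowest of its group. The log2 fold change was 1.18 (95% interval 0.65 to 1.71, adjusted p = 0.066 with edgeR and 0.000165 with DESeq2). Over the alternatives run, the adjusted p lay between 0.000165 and 0.337. Other ADAMs of its kind had smaller differences. ADAM19 had 907.4, 931.7 and 704.4 CPM in neg.si and 902.7, 914.9 and 953.4 CPM in RIPK4.si, with overlapping groups and an interval of -0.24 to 0.49 on the log2 scale. ADAM9 had means of 137.0 ± 25.6 and 143.7 ± 9.53 CPM (SD, n = 3), and ADAM15 104.9 ± 38.0 and 115.3 ± 16 CPM. The log2 fold changes were 0.07 (-0.31 to 0.45) for ADAM9 and 0.14 (-0.43 to 0.71) for ADAM15, whose direction reversed without neg.si replicate 1 and replicate 3, respectively.

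ADAM10 and ADAM17, the sheddases with the widest known range of substrates, were both lower in every RIPK4.si library than in any neg.si library. ADAM10 had 328.6, 389.3 and 567.0 CPM in neg.si and 294.1, 199.7 and 262.3 CPM in RIPK4.si. ADAM17 had 49.5, 67.8 and 86.8 CPM in neg.si and 43.8, 25.8 and 45.1 CPM in RIPK4.si. In both, neg.si replicate 3 was the highest library and RIPK4.si replicate 2 the lowest. Mean levels in RIPK4.si were 58.8% of neg.si for ADAM10 and 56.2% for ADAM17. The log2 fold change of ADAM10 was -0.76 (-1.29 to -0.24, adjusted p = 0.219 with edgeR, 0.053 with DESeq2 and 0.0423 with the GC trend removed). That of ADAM17 was -0.83 (-1.42 to -0.24), with adjusted p = 0.241, 0.0634 and 0.0604 in the same order. The ratio of ADAM10 to ADAM17 CPM within a library was 5.74 to 6.64 in neg.si and 5.82 to 7.75 in RIPK4.si, and these ranges overlapped. ADAM17 shares 10.3% of its exon bases with IAH1 on the opposite strand.

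**Figure D3:**
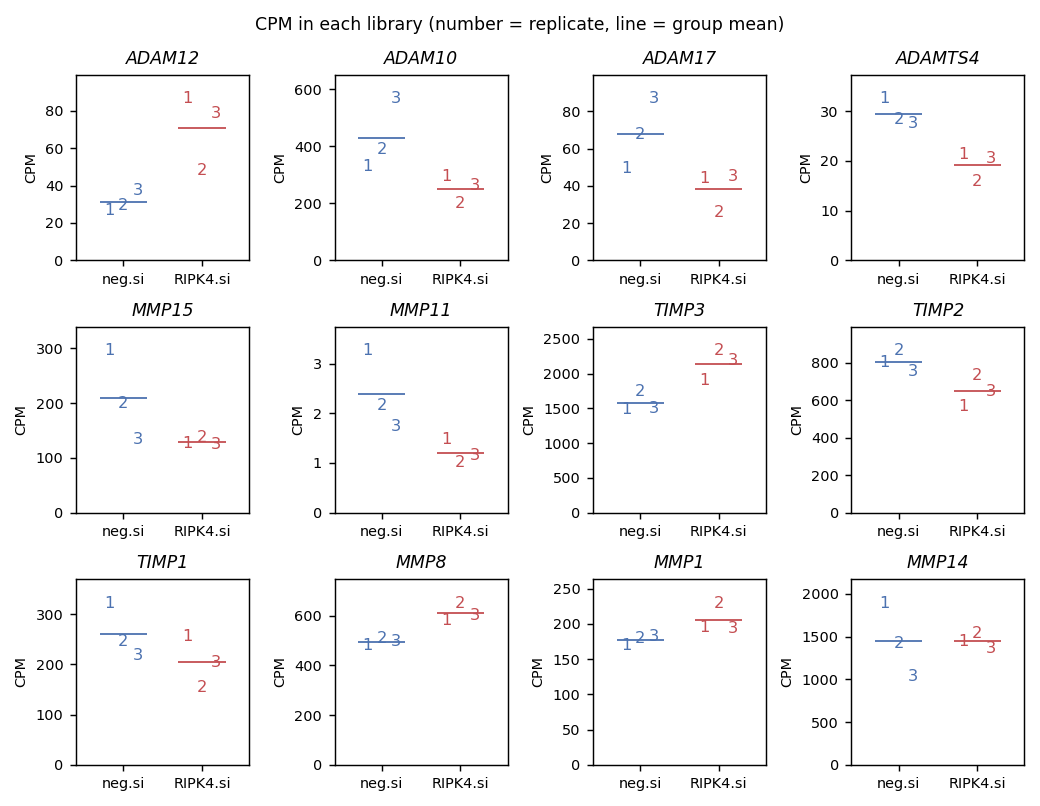
CPM of 12 members in each library, where the digit is the replicate and the line is the mean of 3 libraries; each panel has its own axis from 0. The groups do not overlap in ADAM12, ADAM10, ADAM17, ADAMTS4, MMP11, TIMP3, TIMP2, MMP8 and MMP1, and they overlap in MMP15, TIMP1 and MMP14.

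The remaining ADAM genes tested include ADAM11, ADAM22 and ADAM23, which lack the catalytic zinc site and bind ligands such as LGI proteins or integrins. Their log2 fold changes ran from -0.37 to 0.15, and none had an unadjusted p under 0.05. The 9 tested ADAMs with the zinc site ran from -0.83 to 1.18 with a median of 0.01, so that the lower ADAM10 and ADAM17 and the higher ADAM12 stood at opposite ends.

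Surface proteins that steer ADAM10 and ADAM17 were read from a list of 9 cofactors, all of which were tested. With edgeR 0 of the 9 were called, beside 0.767% of all genes, and 2 had an unadjusted p under 0.05, beside 10.8% of all genes. Both were higher, beside 4.85% of all genes in that direction, and DESeq2 called the first of them. TSPAN14, a tetraspanin that carries ADAM10 to the surface, had 525.1, 523.9 and 490.0 CPM in neg.si and 707.5, 718.8 and 737.2 CPM in RIPK4.si. The groups were far apart relative to their spread, and the log2 fold change was 0.49 ± 0.138 (standard error), with adjusted p = 0.18 from edgeR and 0.0494 from DESeq2. TSPAN5, another ADAM10 tetraspanin, had means of 1.26 ± 0.165 and 2.10 ± 0.445 CPM (SD, n = 3; adjusted p = 0.344 with edgeR). RHBDF1 and RHBDF2, the iRhoms that ADAM17 needs for its maturation, had log2 fold changes of 0.23 and 0.10 with overlapping groups.

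Of 23 tested genes whose products are known to be shed from the membrane, 4 were called with edgeR, beside 0.767% of all genes tested. DESeq2 also called IL6R, the interleukin-6 receptor gene, which had 38.3 ± 1.92 CPM in neg.si and 23.3 ± 3.53 CPM in RIPK4.si (adjusted p = 0.0111). An unadjusted p under 0.05 was found for 10 of the 23, of which 5 were higher and 5 lower, beside 10.8% of all genes. SDC4, a heparan sulfate syndecan cut by several metalloproteinases, was measured at 58.0, 58.3 and 54.0 CPM in neg.si and at 98.5, 121.7 and 109.4 CPM in RIPK4.si. SDC2, another syndecan, was measured at 163.3, 153.5 and 156.3 CPM in neg.si and at 256.0, 283.7 and 261.1 CPM in RIPK4.si. Both syndecans rose, by 0.95 (adjusted p = 0.0329) and 0.76 (adjusted p = 0.0451) on the log2 scale. MICB, an NKG2D ligand shed by ADAM10 and ADAM17, rose from 12.2 ± 0.368 to 37.8 ± 2.51 CPM (SD, n = 3, adjusted p = 0.00655 from edgeR). NOTCH3, whose cleavage by ADAM10 follows ligand binding, fell from 9.46 ± 2.80 to 3.46 ± 0.252 CPM (adjusted p = 0.0404 from edgeR). None of the 4 held in every fit with 1 library left out, as 0 of the related genes were called without neg.si replicate 2, RIPK4.si replicate 1 or RIPK4.si replicate 3.

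The 6 membrane-type MMPs had a median log2 fold change of -0.20, which was -0.03 when neg.si replicate 1 was left out and -0.40 when replicate 3 was. Fitted values of 5 of the 6 were below 0, but these include MMP14 at 0.00 and MMP17 at -0.32, which was 0.22 without neg.si replicate 1. MMP14 had 1891.8, 1423.1 and 1028.9 CPM in neg.si and 1442.1, 1534.2 and 1363.7 CPM in RIPK4.si. The RIPK4.si values all lay within the neg.si range, and the difference of 0.00 on the log2 scale had an interval of -0.49 to 0.49. MMP15 had 295.3, 199.9 and 133.1 CPM in neg.si and 126.8, 136.8 and 125.0 CPM in RIPK4.si. The groups overlapped at neg.si replicate 3, and the log2 fold change was -0.69 (-1.27 to -0.12, adjusted p = 0.337 with edgeR and 0.0195 with the GC trend removed). The value moved with the control libraries, as it was -0.93 without neg.si replicate 3 (adjusted p = 0.0285 with edgeR) and -0.35 without neg.si replicate 1 (adjusted p = 0.478). MMP16 had 169.7, 211.3 and 343.9 CPM in neg.si and 238.0, 199.0 and 241.7 CPM in RIPK4.si, with a log2 fold change of -0.09 (-0.65 to 0.46) that reversed without neg.si replicate 3.

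The order of the neg.si replicates in these genes followed base composition. MMP14 (58.7% GC) and MMP15 (65.0% GC) were highest in neg.si replicate 1 and lowest in replicate 3, while MMP16 (36.5% GC), ADAM10 (37.1% GC) and ADAM17 (41.2% GC) were lowest in replicate 1 and highest in replicate 3. Of the 20 tested members with at least 55% GC, 18 were higher in neg.si replicate 1 than in replicate 3, and of the 13 with under 45% GC, 1 was. Across the 43 members, the Spearman correlation of GC content with the log2 ratio of these 2 control libraries was 0.77, and it was 0.66 across 16239 genes. The correlation of GC content with the log2 fold change between conditions was -0.23 across the 43. These are correlations across genes measured in shared libraries, and genes are not replicates. The source of the GC difference between the control libraries was not tested.

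**Figure D4:**
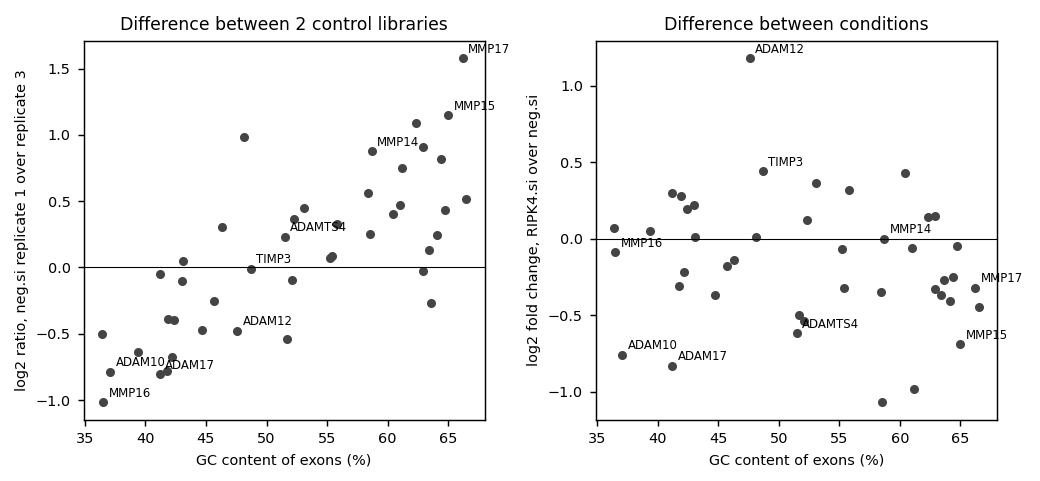
GC content of exons for the 43 tested members against the log2 ratio of neg.si replicate 1 to replicate 3, after 0.5 CPM was added (left), and against the log2 fold change of RIPK4.si over neg.si (right). On the left 18 of 20 members with at least 55% GC lie above 0, and on the right the Spearman correlation is -0.23.

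The collagenases MMP1 and MMP8 had higher values in every RIPK4.si library than in any neg.si library, but neither was called. MMP8 had 480.5, 508.1 and 496.4 CPM in neg.si and 580.9, 650.8 and 602.1 CPM in RIPK4.si. The groups were separate and the neg.si libraries close together, with a log2 fold change of 0.30 (-0.01 to 0.62, adjusted p = 0.483 with edgeR). MMP1 had 169.4, 178.8 and 182.3 CPM in neg.si and 194.6, 229.4 and 193.6 CPM in RIPK4.si. Its groups were separate as well, with a log2 fold change of 0.22 (-0.10 to 0.54, adjusted p = 0.692 with edgeR). The gelatinase MMP2 had 129.3, 109.8 and 122.9 CPM in neg.si and 149.7, 76.1 and 118.5 CPM in RIPK4.si, and RIPK4.si libraries lay on both sides of the controls. MMP9, gelatinase B, was near the detection limit with 11, 17 and 5 counts in neg.si and 3, 4 and 6 in RIPK4.si, and it was not tested. MMP11, stromelysin-3, which is activated inside the cell by furin, had 3.26, 2.16 and 1.73 CPM in neg.si and 1.47, 1.0 and 1.16 CPM in RIPK4.si. All RIPK4.si libraries were lower, with a log2 fold change of -0.98 (-1.68 to -0.27, adjusted p = 0.248 with edgeR).

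Among the ADAMTS genes, ADAMTS4, known as aggrecanase-1, had 32.5, 28.3 and 27.6 CPM in neg.si and 21.2, 15.9 and 20.4 CPM in RIPK4.si. The groups were separate, with a mean in RIPK4.si of 65.1% of neg.si and a log2 fold change of -0.62 (-1.0 to -0.23, adjusted p = 0.177 with edgeR, 0.0678 with DESeq2 and 0.0457 with the GC trend removed). ADAMTS1, a proteoglycanase present at 121.1 ± 10.8 CPM in neg.si (SD, n = 3), had 106.6 ± 16.5 CPM in RIPK4.si with overlapping groups. ADAMTS16 had 3.71, 4.16 and 4.0 CPM in neg.si and 3.14, 2.53 and 2.51 CPM in RIPK4.si, with no overlap and a log2 fold change of -0.54 (adjusted p = 0.367 with edgeR). ADAMTS2, which removes the amino-terminal propeptide of fibrillar procollagens, stood at 0.619 ± 0.231 and 0.292 ± 0.0882 CPM. Its log2 fold change was -1.07 with a wide interval of -2.09 to -0.06 (adjusted p = 0.424 with edgeR). This rests on 18, 26 and 13 counts in neg.si and 6, 11 and 9 in RIPK4.si, and DESeq2 gave no adjusted p. The other 11 ADAMTS and ADAMTSL genes tested had log2 fold changes from -0.41 to 0.32, and none had an unadjusted p under 0.05. ADAMTS7 has pseudogene copies with rows of their own, and whether reads were shared with them was not tested.

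The 4 inhibitor genes had differences of both signs. TIMP3 had 1489.0, 1743.9 and 1499.4 CPM in neg.si and 1901.2, 2325.0 and 2190.5 CPM in RIPK4.si. The groups were separate, with a log2 fold change of 0.44 (0.08 to 0.80, adjusted p = 0.335 with edgeR). TIMP2 had 800.7, 862.1 and 752.2 CPM in neg.si and 566.5, 730.1 and 644.1 CPM in RIPK4.si. These groups were separate in the other direction, with a log2 fold change of -0.32 (-0.67 to 0.04, adjusted p = 0.534 with edgeR). TIMP1 had 321.8, 244.6 and 217.3 CPM in neg.si and 255.8, 153.2 and 203.9 CPM in RIPK4.si, which overlapped, with a log2 fold change of -0.35 (-0.85 to 0.14) that ran from -0.54 without RIPK4.si replicate 1 to -0.16 without neg.si replicate 1. TIMP4 was scarce, at 2.21 ± 0.433 and 2.84 ± 0.182 CPM (SD, n = 3), and its groups overlapped.

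Expressed as parts of the summed TIMP level per kb within each library, which needs no scaling between libraries, TIMP3 made up 47.8%, 55% and 54.4% in neg.si and 60.5%, 69.1% and 65.8% in RIPK4.si. The TIMP3 shares did not overlap between groups. TIMP2 made up 19.0% to 20.2% in neg.si and 13.3% to 16.1% in RIPK4.si, again without overlap, and TIMP1 24.5% to 32.8% and 14.5% to 25.9%, with overlap. With the longest annotated transcript as the length, the TIMP3 share was 38.6% to 45.1% in neg.si and 51.4% to 59.6% in RIPK4.si. GC content differed between TIMP3 (48.7%), TIMP2 (55.4%) and TIMP1 (58.4%), and its part in these shares was not tested. With the GC trend removed, their log2 fold changes were 0.47, -0.33 and -0.35 in the same order. The summed TIMP level relative to the summed MMP level per kb was 0.889 to 1.12 in neg.si and 1.05 to 1.14 in RIPK4.si, and these ratios overlapped.

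**Figure D5:**
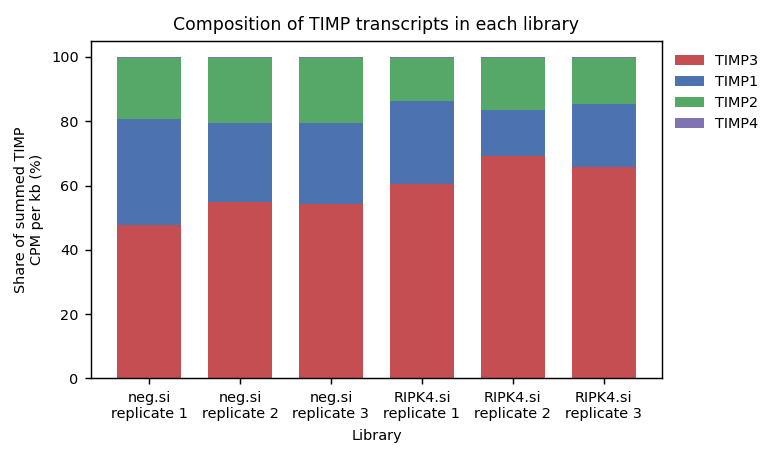
Share of each TIMP in the summed TIMP level (CPM per kb of exon, in %) in each of the 6 libraries, as stacked bars from 0; TIMP4 is too scarce to be visible. The TIMP3 part is 47.8% to 55% in the neg.si libraries and 60.5% to 69.1% in the RIPK4.si libraries.

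The 9 members that were not tested had 8 to 46 counts over the 6 libraries together. Besides MMP3, MMP7, MMP9, MMP10 and MMP20, they were ADAM20, ADAMTS15, ADAMTSL2 and MMP28. MMP28, epilysin, had 6, 4 and 5 counts in neg.si and 0, 0 and 1 in RIPK4.si. ADAMTSL2 had 5, 6 and 5 counts in neg.si and 1, 0 and 2 in RIPK4.si. Neither overlapped between groups, and with no filter on low counts their adjusted p was 0.382 and 0.555 with edgeR. How often genes with so few counts fail to overlap was not counted. GENCODE release 44 lists 73 protein-coding genes that meet the name rule, and the 21 with no row, MMP13 among them, were not analysed here.

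Genes acting around these proteases were counted from further lists. Among 13 AP-1 and ETS factors, which are known regulators of MMP promoters, 1 was called by edgeR, beside 0.767% of all genes. This was ELK1, an ETS factor, which fell from 51.8 ± 12.5 to 18.8 ± 2.12 CPM (SD, n = 3, edgeR adjusted p = 0.0292). With edgeR, none of 6 convertases and zymogen activators, 5 other inhibitors and clearance receptors, 3 genes for MMP induction or ADAMTS glycosylation and 14 matrix substrates was called, while 0, 0, 0 and 4 had an unadjusted p under 0.05, beside 10.8% of all genes. DESeq2 called 2 of the matrix substrates, IGFBP3 (adjusted p = 0.0108) and THBS1 (adjusted p = 0.0107). Over all lists, edgeR called 5 of the 73 related genes tested, and DESeq2, which called 2.91% of all genes, called 9. FURIN, the convertase that activates most ADAMs and membrane-type MMPs, had 130.9 ± 51.0 and 160.3 ± 11.1 CPM with overlapping groups. RECK, a membrane-bound inhibitor of MMPs, had 19.5 ± 4.02 and 18.3 ± 0.773 CPM, also overlapping.

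The 7-base sequence ACAGCTT was picked in an earlier analysis of these same libraries, where genes holding it in the 3′ UTR tended to have lower levels in RIPK4.si, so its counts here are not independent evidence. Among the 43 tested members, 12 (27.9%) held it in their longest 3′ UTR, and so did 18.4% of 12979 tested protein-coding genes. The 12 had a median log2 fold change of -0.29 and the other 31 one of -0.06, beside -0.09 and 0.00 over all tested protein-coding genes, and their 3′ UTRs had median lengths of 3572 and 1365 bases. ADAM10, ADAM17 and TIMP2, which were lower in RIPK4.si without overlap, and ADAM12 and TIMP3, which were higher without overlap, all held 1 copy. Their sites are shown to let the same 7 bases, in capitals, be compared between members that went in opposite directions (GRCh38).
ADAM10, chromosome 15, 58595944 to 58595970, minus strand: ttttcaaaatACAGCTTtttgtacatg
ADAM17, chromosome 2, 9490093 to 9490119, minus strand: caaatcaatcACAGCTTgtattttgtg
TIMP2, chromosome 17, 78854750 to 78854776, minus strand: attgagttgcACAGCTTtgctttatcc
ADAM12, chromosome 10, 126014707 to 126014733, minus strand: ttttcttcctACAGCTTattatagttg
TIMP3, chromosome 22, 32860772 to 32860798, plus strand: gggtgtggagACAGCTTggttcccttt
A match describes the sequence only, and whether it bears on the level of any of these transcripts was not tested.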

How the data were processed

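Poly(A) RNA of 6 WM266.4 libraries was sequenced as read pairs. Per the study's methods, the authors trimmed reads with Cutadapt, aligned them to GRCh38.p13 with TopHat and counted pairs per gene with HTSeq, ignoring strand. The deposited raw counts (24526 rows, each with at least 6 counts in all) were analysed. The same table holds columns that were not used: the authors' normalized counts (a signal scaled by DESeq2 size factors) and their own comparison, given as a deposited fold change ratio, a deposited log2 value, and a deposited p-value and adjusted p-value. It has 0 columns of other samples. Submitters' notes also name FastQC.

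Counts were tested with edgeR 4.0.16 in R 4.3.3 (TMM, filterByExpr, glmQLFit and glmQLFTest, Benjamini-Hochberg over all genes tested, threshold 0.05). CPM used TMM-scaled library sizes, per kb values the union of GENCODE 44 exons. Of the members, 44 of 52 had identical coordinates in that annotation. Alternatives were DESeq2 1.42.0, DESeq2 size factors, upper-quartile normalization, no filter, at least 10 counts in every library, a replicate block, removal of GC trends (lowess, span 0.3, as offsets), and leaving out each library. Same-numbered libraries of the groups had correlations of deviations of -0.242, 0.251 and 0.346, so numbers were not taken as pairs. Replicate counts differed beyond sampling noise (chi-square per degree of freedom 16.4 to 117.4). Intervals are 95%, from edgeR's standard error. Python 3.11.15 with numpy 2.4.6, pandas 2.3.3, scipy 1.17.1 and matplotlib 3.10.9 was used for the rest.

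The name rule for the members used no expression value. The rule, the classes, the related genes and the markers were set with earlier results of these data known. Members were named where they had an unadjusted p under 0.05 or were called by DESeq2, were among the 10 highest by CPM or by CPM per kb, or were on a short list of members by role. MMP3, MMP7, MMP10, MMP20, MMP28, ADAMTSL2, ADAM11, ADAM22, ADAM23, ADAMTS7, MMP17, MMP24OS, COL1A1, COL1A2, KRT10, PMEL, DCT, TYR, IGFBP3, THBS1, IL6R, TSPAN14, TSPAN5, RHBDF1, RHBDF2, FURIN and RECK were named after their values were seen. A planned search of proteins for the zinc-binding motif was not made, and ADAMs were split by textbook knowledge.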

Additional observations from a re-analysis of the deposited data

How the results depend on the processing

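Among 21 named members, 293 log2 fold changes were recomputed under 14 alternatives. Of these, 12 became significant (all in ADAM10, ADAM12, ADAMTS4 and MMP15) and 15 changed sign. The others kept direction and, where an adjusted p was given, side of the threshold. ADAMTS2 had no adjusted p with DESeq2. MMP14, at 0.00, changed sign with DESeq2, its size factors, upper-quartile scaling, no filter or GC removal (0.01 each) and with the block (0.04; 0.02 with GC removal), and it ran from -0.19 to 0.25 with 1 library left out. Leaving out 1 library also changed the sign of ADAM15 (-0.10 to 0.44), ADAM9 (-0.01 to 0.23), MMP2 (-0.30 to 0.16) and MMP16 (-0.28 to 0.25, with 0.00 without RIPK4.si replicate 2). The 21 exclude members named after their values were seen. Of those, ADAM11 (-0.13 to 0.34), ADAM22 (-0.08 to 0.23), MMP17 (-0.62 to 0.22) and MMP24OS (-0.21 to 0.30) changed sign as well. Calls over all genes numbered 125, 437 with DESeq2, 535 with GC removal, 426 with block and GC removal, and 0 to 295 with 1 library left out (0 without neg.si replicate 2, RIPK4.si replicate 1 or RIPK4.si replicate 3, with 1153, 1426 and 1086 genes at an unadjusted p under 0.05). Members called numbered 0, 1 with DESeq2 or no filter (ADAM12), 4 with GC removal, 3 with block and GC removal, and 0 to 2 with 1 library left out (2, ADAM12 and MMP15, without neg.si replicate 3). Members with an unadjusted p under 0.05 numbered 5 without RIPK4.si replicate 3. Related genes called numbered 5, 9 with DESeq2 or GC removal, and 0 to 6 with 1 library left out. RIPK4 had log2 fold changes of -2.06 to -1.74 with 1 library left out, with an adjusted p of 0.0622 to 0.106 without neg.si replicate 2 or any 1 RIPK4.si library. The replicate block gave 131 calls and 1 member, ADAM12 (adjusted p = 0.0402); neg.si replicate 1 deviated most like RIPK4.si replicate 2 (0.413), not its own number. Median log2 fold changes with 1 library left out ran from -0.22 to -0.05 for members, -0.02 to 0.00 for all genes, -0.06 to 0.13 for TIMPs, -0.40 to -0.03 for membrane-type MMPs, -0.10 to 0.10 for ADAMs with the zinc site and -0.27 to 0.12 for proteoglycanases. The median of all genes was -0.01 with DESeq2 or no filter and 0.00 with GC removal, with or without the block. The causes of these shifts were not tested. Depth limits the 9 members with at most 46 counts, and fits with 1 library left out rest on 2 libraries in a group.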
